A study of Mus musculus with 7 samples.

Results

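In accessible chromatin maps of bone marrow stem and progenitor cells, some open sites were recorded as 1 peak in some libraries and as 2 or more neighbouring peaks in others. Peaks of 7 ATAC-Seq libraries on the 19 autosomes were merged wherever they overlapped, which gave 172227 regions, of which 105631 held a peak in all 7 libraries. A region was taken as a member when at least 2 libraries gave exactly 1 distinct peak and at least 2 others gave 2 or more, distinct meaning another start or end. This left 6970 members, 6.60% of the regions shared by all 7 libraries and 4.05% of all merged regions. The members were thus chosen by their number of peaks per library, so the split itself is described and not taken as a finding.

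ATAC-Seq uses a transposase that cuts DNA where nucleosomes and other proteins leave it open, so the density of cuts marks promoters, enhancers and other regulatory DNA. A regulatory element is often made of several short open stretches with nucleosomes between them, and a peak caller either reports such a stretch as 1 wide peak with several summits or as separate narrow peaks. LSK cells (lineage-negative, Sca-1+, c-Kit+ bone marrow cells) hold the hematopoietic stem cells and the multipotent progenitors that feed the myeloid, lymphoid, erythroid and megakaryocyte lineages, and their open sites include those of several lineages at once.

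The 4 WTAkita libraries came from adult wild-type offspring that did not carry the Ins2 Akita mutation and were born to diabetic Ins2Akita/+ dams. The 3 Ctrl libraries came from adult wild-type offspring born to normal pregnancy in a similar breeding scheme. All mice were on the C57/BL6 background and were analyzed at 8 to 12 weeks of age on a regular diet, while the dams of the Akita scheme, wild-type littermate females included, were given a high-fat diet before they were bred with C57BL/6 males. In the Akita dams diabetes comes from misfolded insulin in pancreatic beta cells. Each library was made from 50000 sorted LSK cells. How many mice were pooled for a library is unknown here, and the p-values below therefore reflect only how much the libraries vary.

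The libraries held between 134811 and 148072 distinct autosomal peaks, from tag totals estimated at 37600000 to 53100000. The median fold enrichment of a peak, its summit pileup divided by the background around it in that library, was 5.26, 5.77, 6.32 and 6.58 in WTAkita and 5.79, 6.48 and 6.47 in Ctrl, so WTAkita replicate 1 was lowest. Of the markers of LSK cells, 10 of 10 had a shared peak region at a start site. Markers of other cells also had one, 4 of 6 for T cells, 3 of 5 for B cells, 4 of 6 for granulocytes and monocytes, 4 of the 4 annotated autosomal ones for erythroid cells and 5 of 5 for stromal and endothelial cells, so an open promoter did not separate LSK cells from these types. In bulk libraries, fewer cells with an open site and a less open site in every cell cannot be told apart.

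The DNA of a few members shows what lay between the separate peaks. The sequences below are the mm10 plus strand, 200 bp around the middle of the gap, with capitals for the bases that no peak covered in any library that gave exactly 2 peaks. They were chosen from the members described below because their split calls left out some bases in common. The gap windows of Epor, Rpl38, Ext2, Vps13d, Tnfrsf22, the Runx1 intron and the Mecom introns held no such bases. The printed gaps therefore do not stand for all members. The first lies in an intron of the long noncoding RNA Scpep1os at chr11:88908834-88909033, the second in an intron of Clpb, a mitochondrial protein disaggregase, at chr7:101679930-101680129, and the third in an intron of Maml3, a Notch coactivator, at chr3:51789350-51789549. Another lies in Nfkb1, which encodes a subunit of NF-kB, 1303.5 bp downstream of an internal start site, at chr3:135602392-135602591, one downstream of the start site of Sod2, the mitochondrial superoxide dismutase, at chr17:13008454-13008653, and the last in intergenic DNA nearest to Marco, a scavenger receptor of macrophages, at chr1:120532310-120532509.
Scpep1os gap: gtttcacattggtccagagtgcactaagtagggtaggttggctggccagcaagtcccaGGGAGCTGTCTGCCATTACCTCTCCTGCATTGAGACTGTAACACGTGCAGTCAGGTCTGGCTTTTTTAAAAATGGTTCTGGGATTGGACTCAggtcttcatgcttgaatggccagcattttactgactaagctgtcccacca
Clpb gap: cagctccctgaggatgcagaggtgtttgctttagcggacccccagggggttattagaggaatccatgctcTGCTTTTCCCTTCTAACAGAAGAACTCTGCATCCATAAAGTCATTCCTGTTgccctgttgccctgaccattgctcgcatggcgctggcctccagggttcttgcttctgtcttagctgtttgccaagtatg
Maml3 gap: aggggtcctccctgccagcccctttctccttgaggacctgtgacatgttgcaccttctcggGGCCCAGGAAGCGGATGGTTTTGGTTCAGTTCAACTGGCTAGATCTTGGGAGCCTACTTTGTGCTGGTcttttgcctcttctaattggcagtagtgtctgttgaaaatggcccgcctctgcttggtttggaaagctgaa
Nfkb1 gap: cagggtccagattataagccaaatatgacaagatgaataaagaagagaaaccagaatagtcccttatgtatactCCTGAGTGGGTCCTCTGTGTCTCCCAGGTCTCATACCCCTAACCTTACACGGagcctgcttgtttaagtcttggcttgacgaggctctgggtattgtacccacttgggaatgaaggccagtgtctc
Sod2 gap: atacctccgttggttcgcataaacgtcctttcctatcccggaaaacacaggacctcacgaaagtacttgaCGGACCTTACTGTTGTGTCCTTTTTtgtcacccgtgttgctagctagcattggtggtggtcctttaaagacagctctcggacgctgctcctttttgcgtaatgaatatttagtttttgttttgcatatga
Marco gap: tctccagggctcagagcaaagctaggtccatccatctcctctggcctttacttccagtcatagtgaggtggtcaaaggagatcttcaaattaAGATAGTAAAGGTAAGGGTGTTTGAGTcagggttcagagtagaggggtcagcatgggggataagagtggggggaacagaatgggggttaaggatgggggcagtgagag

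The strongest summit of these members lay to the side of the gap, and the same length of DNA around it is given next for all but Sod2, whose window touches a UTR, with capitals for matches to 5 motifs of factors that act in blood cells or organize chromatin. The windows are chr11:88908583-88908782 for Scpep1os, chr7:101679694-101679893 for Clpb, chr3:51788813-51789012 for Maml3, chr3:135602855-135603054 for Nfkb1 and chr1:120532589-120532788 for the Marco site. Both strands were searched. The letters for PU.1, a driver of myeloid and early lymphoid genes, were GAGGAAGT. For the RUNX factors of stem cells they were TGTGGT. For the GATA factors of stem and erythroid cells they were AGATAA. For AP-1, a signal-responsive dimer, they were TGANTCA with N any base. For CTCF, which bounds chromatin loops, they were CCA, any 2 bases, AG, any 2 bases and GGC. The Scpep1os and Clpb summits held a CTCF match, the Maml3 summit held AP-1 and GATA matches and the Nfkb1 summit held a RUNX match, whereas the gap windows of these 4 members held none of the 5. The Marco site ran the other way, with an AP-1 match in its gap window and no match at its summit.
Scpep1os summit: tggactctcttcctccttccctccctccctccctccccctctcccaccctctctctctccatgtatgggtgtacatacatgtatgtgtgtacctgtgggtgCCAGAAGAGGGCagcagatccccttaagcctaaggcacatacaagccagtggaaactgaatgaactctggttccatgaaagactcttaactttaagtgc
Clpb summit: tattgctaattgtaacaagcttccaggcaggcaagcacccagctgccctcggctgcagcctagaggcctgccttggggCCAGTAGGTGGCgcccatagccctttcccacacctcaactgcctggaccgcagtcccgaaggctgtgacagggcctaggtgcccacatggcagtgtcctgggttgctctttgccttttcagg
Maml3 summit: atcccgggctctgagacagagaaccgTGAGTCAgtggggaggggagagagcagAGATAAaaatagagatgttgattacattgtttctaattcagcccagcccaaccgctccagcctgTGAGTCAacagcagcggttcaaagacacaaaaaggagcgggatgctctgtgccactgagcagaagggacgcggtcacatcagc
Nfkb1 summit: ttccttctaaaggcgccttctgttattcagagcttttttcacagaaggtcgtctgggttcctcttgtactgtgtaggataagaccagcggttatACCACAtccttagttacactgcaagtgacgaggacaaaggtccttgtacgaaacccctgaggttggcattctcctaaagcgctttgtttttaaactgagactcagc
Marco summit: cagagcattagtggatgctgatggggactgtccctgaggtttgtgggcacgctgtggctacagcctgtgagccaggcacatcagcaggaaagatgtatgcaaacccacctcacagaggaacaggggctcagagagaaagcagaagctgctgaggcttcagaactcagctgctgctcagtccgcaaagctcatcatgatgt

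Over all 6970 members, a 200 bp window at the gap was poorer in GC and in most of these motifs than one at the member's own strongest summit. The median GC content was 49.5% at the gap and 54.0% at the summit, and the mean number of CpG was 5.54 and 8.09. Repeat-masked bases made up 16.7% of gap windows and 11.1% of summit windows. PU.1 letters were found in 1.18% of gap windows and 6.94% of summit windows, against 9.35% of summit windows of all 105631 shared regions. CTCF letters were found in 0.918%, 6.01% and 10.8% of the same windows, RUNX letters in 12.3%, 21.4% and 25.4%, and AP-1 letters in 4.61%, 7.39% and 8.44%. GATA letters did not follow that order, with 8.71% at the gap, 7.13% at the summit and 7.32% over all shared regions. These are counts of letters and not of bound factors.

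The members were wide sites, and their sides often differed in height. Their median width was 1129.5 bp (quartiles 924 and 1402 bp), against 568 bp for the 91118 regions that were single in all 7 libraries. The median gap between neighbouring peaks was 36 bp as deposited (quartiles 15 and 68 bp), and the summits nearest to the gap on either side lay a median of 451 bp apart (quartiles 384 and 536 bp). The place of the gap varied between libraries that split the same member. The range of its centre was a median of 41 bp over the 6889 members with 2 or more libraries of exactly 2 peaks. Its quartiles were 19.5 and 87.5 bp and its highest value was 2103 bp. That median range was larger than the median gap of 36 bp. The weaker side reached a median of 0.425 times the fold enrichment of the stronger side (quartiles 0.242 and 0.674). Of the members, 6457 had at most 2 peaks in any library, 513 had 3 or more in at least 1 library, and the most was 5.

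The threshold of the rule ran through a graded series. Of the shared regions, 4788 were split in 1 library, 2421 in 2, 1769 in 3, 1448 in 4, 1332 in 5, 1469 in 6 and 1286 in all 7. Median width went with that order, at 963.5 bp for regions split in 1 library, 1051, 1123, 1164 and 1239 bp for members split in 2, 3, 4 and 5, and 1308 and 1464.5 bp for regions split in 6 and in 7. The median gap was 15 bp for regions split in 1 library, 67 bp for those split in 6 and 86 bp for those split in 7. The start site of Ppp1r9a, which encodes the actin-binding protein neurabin, lay just outside the rule, with 1 peak in all 4 WTAkita libraries and in Ctrl replicates 1 and 2, and 2 peaks in Ctrl replicate 3. The start site of Gm5141 lay just inside it, with 2 peaks in WTAkita replicate 3 and Ctrl replicate 2 and 1 peak in the other 5 libraries. At the other end, an intron near Gm14546 was split in 5 libraries, the 4 WTAkita libraries and Ctrl replicate 1, and lay inside, whereas the start site of Lipa, the lysosomal acid lipase, was split in 6, all but WTAkita replicate 3, and lay outside.

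A first question was whether exposure to a diabetic pregnancy went with more or fewer split sites. The share of members split into 2 or more peaks was 51.3%, 45.6%, 53.8% and 40.7% in WTAkita replicates 1 to 4 and 49.2%, 38.8% and 44.8% in Ctrl replicates 1 to 3. The groups overlapped, and the lowest libraries were WTAkita replicate 4 and Ctrl replicate 2. The mean was 47.9% ± 5.90 (SD, n = 4) in WTAkita and 44.3% ± 5.24 (SD, n = 3) in Ctrl, a difference of 3.59 points that was smaller than the spread within either group (exact permutation test over 35 splits, two-sided, p = 0.400, where the smallest possible p is 0.0571). Without Ctrl replicate 2 the difference was 0.85 points, without WTAkita replicate 3 it was 1.6 points and without Ctrl replicate 1 it was 6.08 points. The mean number of peaks per member was 1.49 ± 0.0656 (SD, n = 4) in WTAkita and 1.46 ± 0.0564 (SD, n = 3) in Ctrl (exact permutation test, two-sided, p = 0.400). The split share was also taken over all 105631 shared regions, which were not chosen by their split. It was 6.29% ± 0.651 (SD, n = 4) in WTAkita and 5.88% ± 0.599 (SD, n = 3) in Ctrl (exact permutation test, two-sided, p = 0.457). Of the members, 3570 were split in a larger share of WTAkita libraries and 3400 in a larger share of Ctrl libraries. With 4 against 3 libraries, equal numbers of split libraries count as a larger share of Ctrl. This held for the 1347 members split in 1 library of each group and the 714 split in 2 of each. These counts therefore depend on the group sizes and do not measure a balance between the groups.

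**Figure D1:**
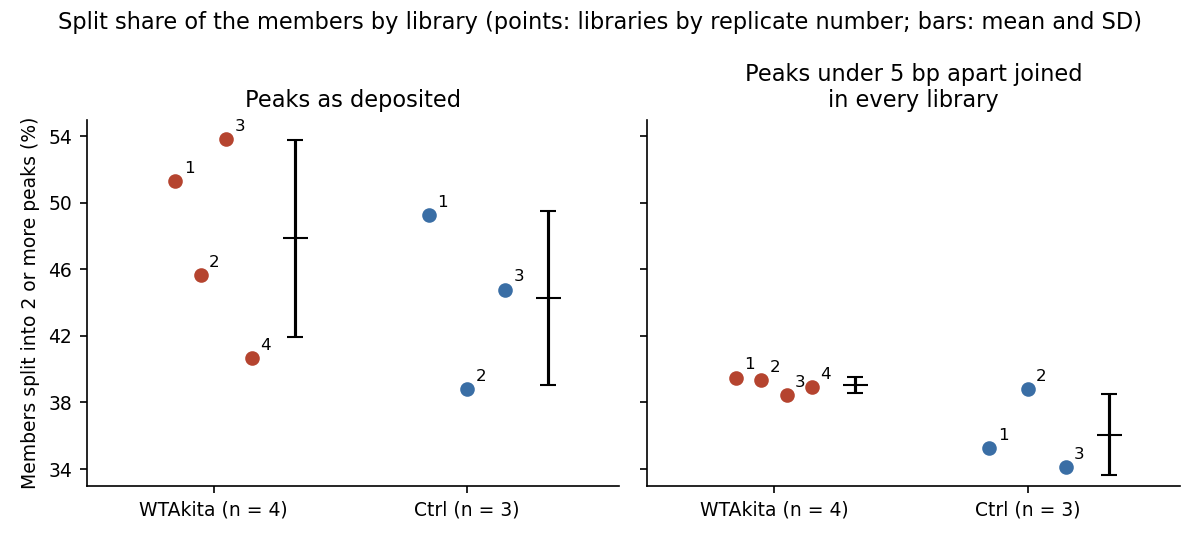
Percent of the 6970 members split into 2 or more peaks (vertical axis, not starting at 0) in each WTAkita library (red, left) and each Ctrl library (blue, right), with the mean and SD as bars, for peaks as deposited and after peaks under 5 bp apart were joined in every library. As deposited the libraries spread between 38.8% and 53.8%, and after joining between 34.1% and 39.5%.

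The libraries did not share the same smallest gap. The deposited peaks were called stretches of signal padded by 50 bp on each side, so 2 neighbouring peaks can overlap by a few bases. The smallest gap between neighbouring autosomal peaks was -16, -6, -19 and 2 bp in WTAkita replicates 1 to 4 and -18, 5 and -14 bp in Ctrl replicates 1 to 3, where a value below 0 is an overlap. The 3 libraries with the lowest values, WTAkita replicates 1 and 3 and Ctrl replicate 1, had the 3 highest split shares, and the 2 libraries with values above 0, WTAkita replicate 4 and Ctrl replicate 2, had the 2 lowest. Inside the members, gaps under 5 bp numbered 887 of 3702 gaps, 479 of 3274, 1181 of 3927 and 125 of 2897 in WTAkita replicates 1 to 4, and 1039 of 3545, 0 of 2762 and 796 of 3219 in Ctrl replicates 1 to 3.

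**Figure D2:**
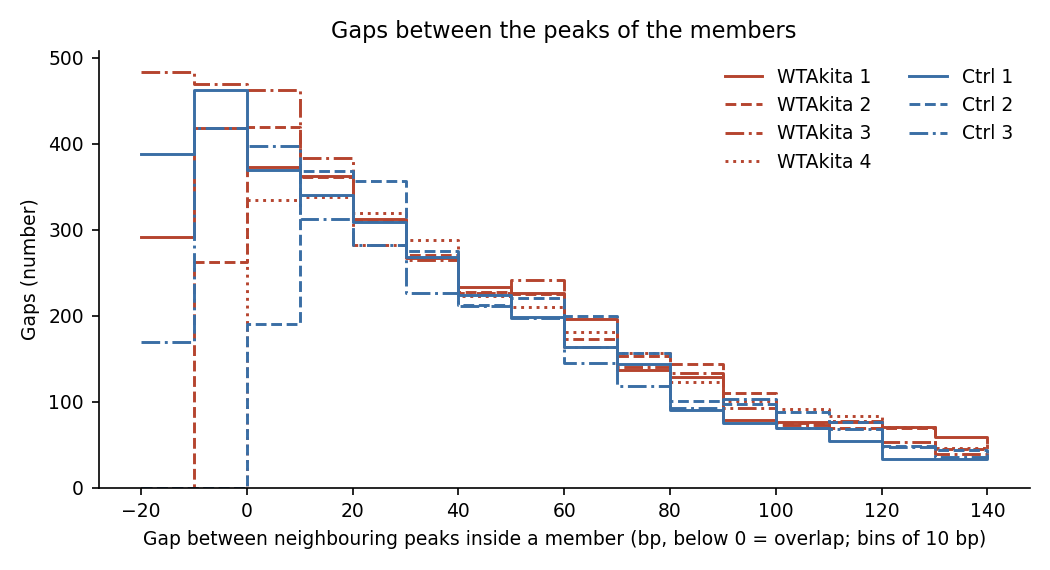
Number of gaps between neighbouring deposited peaks inside the members (vertical axis) by gap length in bins of 10 bp (horizontal axis, values below 0 are overlaps), 1 line per library, WTAkita red and Ctrl blue. The smallest gaps run from -19 bp in WTAkita replicate 3 to 5 bp in Ctrl replicate 2.

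Joining every 2 peaks under 5 bp apart in each library, a step chosen after these gaps were seen, put all libraries on the same smallest gap. The split share of the members was then 39.5%, 39.3%, 38.5% and 38.9% in WTAkita and 35.3%, 38.8% and 34.1% in Ctrl. The WTAkita libraries lay close together, and 1 Ctrl library, replicate 2, lay among them. The mean was 39.1% ± 0.468 (SD, n = 4) in WTAkita and 36.1% ± 2.44 (SD, n = 3) in Ctrl, a difference of 3.0 points (exact permutation test, two-sided, p = 0.114). Of the 6970 members, 5646 (81.0%) still met the rule after joining. When the rule was applied anew to the joined peaks, it gave 6332 members. Their split share was 47.6%, 48.4%, 46.6% and 49.0% in WTAkita and 42.8%, 49.3% and 41.3% in Ctrl. Ctrl replicate 2 was then the highest library (exact permutation test, two-sided, p = 0.286).

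Single calls at a member were mostly of 2 kinds. The flanks were the middles of the left and the right peak in the libraries with exactly 2 peaks, and this split of the single calls was also chosen after the data were seen. Of 26189 single calls, 17355 (66.3%) were 1 peak over both flanks and 8744 (33.4%) covered 1 flank only, with 90 other calls. Where 1 flank was missing it was the weaker one in 8303 calls (95.0%). Of the single calls, 74.7% listed 2 or more summits inside the peak, against 22.6% of the calls in regions that were single in all 7 libraries. Those regions were narrower, with a median width of 568 bp against 1129.5 bp for the members, and summits at regions of like width were not compared. For 3459 members all single calls ran over both flanks, and their weaker flank had a median fold enrichment of 3.88 where it was called on its own. For 975 members all single calls covered 1 flank only, and that median was 2.72.

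The share of members recorded as 1 peak over both flanks was 27.5%, 34.8%, 29.0% and 41.0% in WTAkita and 33.9%, 45.9% and 37.0% in Ctrl. It averaged 33.1% ± 6.16 (SD, n = 4) in WTAkita and 38.9% ± 6.20 (SD, n = 3) in Ctrl, and the groups overlapped (exact permutation test, two-sided, p = 0.286). The difference was -5.87 points, and -2.40 points without Ctrl replicate 2. The share with 1 flank only was 20.99%, 19.4%, 17.1% and 18.2% in WTAkita and 16.6%, 15.1% and 18.1% in Ctrl, with WTAkita replicate 1, the library of lowest median fold enrichment, highest, and the part of that library's low enrichment in this was not tested. It averaged 18.9% ± 1.69 (SD, n = 4) in WTAkita and 16.6% ± 1.49 (SD, n = 3) in Ctrl, a difference of 2.3 points (exact permutation test, two-sided, p = 0.114).

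**Figure D3:**
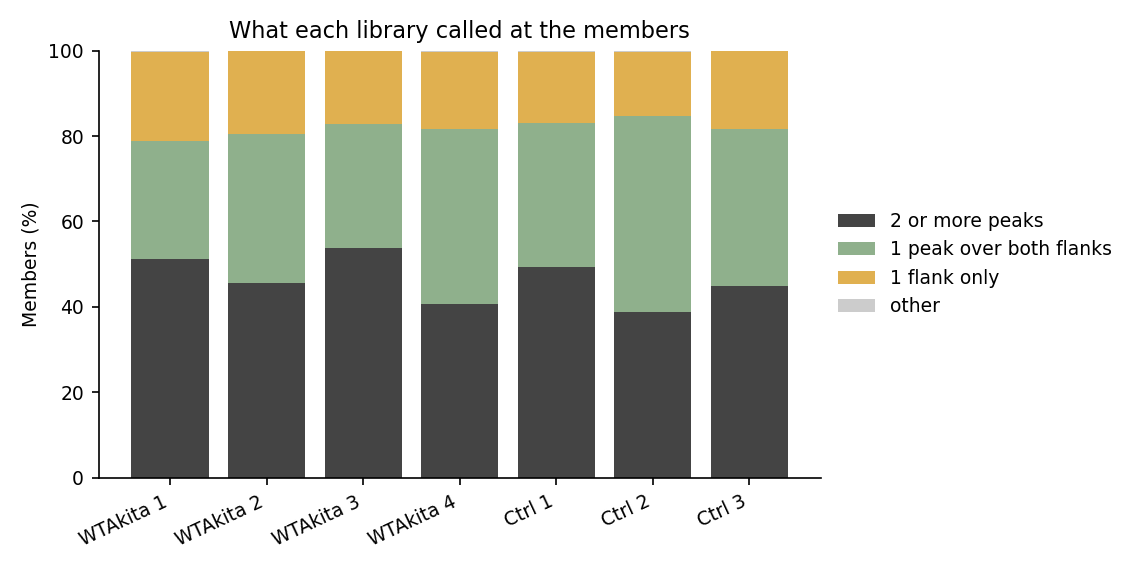
Stacked bars of what each library called at the 6970 members, in percent (vertical axis, 0 to 100), for the 4 WTAkita libraries on the left and the 3 Ctrl libraries on the right. The dark part, 2 or more peaks, is 38.8% to 53.8%, the green part, 1 peak over both flanks, is 27.5% to 45.9%, and the yellow part, 1 flank only, is 15.1% to 20.99%.

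The summed width of the deposited peaks at a member was also compared. Its median was 917, 925, 929 and 926 bp in WTAkita and 946, 946 and 938.5 bp in Ctrl, and the groups did not overlap. Neighbouring peaks overlapped at 710, 263, 953 and 0 gaps in WTAkita and 850, 0 and 587 in Ctrl. The bases they shared were counted in each peak, so the sum is not the exact length under peaks. The difference of the means was -19.25 bp, and the exact permutation test gave the smallest p possible with 4 against 3 libraries (two-sided, p = 0.0571), so the design could not place it under 0.05. The median width of all autosomal peaks was apart in the same way, at 420, 417, 412 and 416 bp in WTAkita and 423, 421 and 423 bp in Ctrl, and whether the members differed from other sites in this was not tested.

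Some members were split along group lines. In 53 members all 4 WTAkita libraries gave 2 or more peaks and all 3 Ctrl libraries gave 1 (0.0502% of shared regions), and in 33 members all 3 Ctrl libraries and no WTAkita library gave 2 or more (0.0312%). Together they were 86 members, 1.23% of all members and 0.0814% of the shared regions, and the rule makes each such region a member. Fisher's exact test gave p = 0.0286 for each of them and, adjusted over the 105631 regions, no region fell under 1.00. The balance of the counts was not the same under all alternatives. It was 50 in WTAkita alone and 51 in Ctrl alone with peaks up to 150 bp apart merged. Without Ctrl replicate 2 it was 133 and 164, and without Ctrl replicate 3 it was 111 and 129. In every other alternative the count for WTAkita alone was the larger, such as 44 and 34 with a caller p under 1e-05. Without Ctrl replicate 1 it was 145 and 106. With a library left out, fewer libraries have to differ. After the joining at 5 bp, 25 of the 53 and 15 of the 33 were still split along group lines.

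Of the 53 members split in all 4 WTAkita libraries and no Ctrl library, the 5 strongest were a start site of Epor, the erythropoietin receptor of erythroid progenitors, intergenic sites nearest to Marco and to Rpl38, a ribosomal protein gene, and introns of Ext2, an enzyme of heparan sulfate synthesis, and Vps13d, a lipid transfer protein. At Epor (chr9:21961391-21963043) a peak of 3.23, 3.74, 3.39 and 2.96-fold enrichment lay apart from one of 18.5, 18.6, 23.8 and 21.9 in the WTAkita libraries, and the Ctrl libraries had 1 peak of 20.8, 23.2 and 22.3. The left edge of the right-hand peak was at 21962064, 21962361, 21962066 and 21962020 in WTAkita replicates 1 to 4, so replicate 2 split the site elsewhere. The height of Epor overlapped between the groups and only the division of the site did not. At the Marco site (chr1:120531790-120533082) the stronger peak had 18.5, 20.7, 22.4 and 23.3-fold enrichment in WTAkita, where replicate 4 gave 3 peaks, against 20.8, 21.5 and 20.1 for the single peak in Ctrl. All of these but Ext2 kept the pattern after joining at 5 bp, with Ext2 still split in 3 WTAkita libraries and no Ctrl library.

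Of the 33 members split in all 3 Ctrl libraries and no WTAkita library, the 5 strongest were start sites of Tnfrsf22, a receptor of the tumor necrosis factor receptor family, of Zswim1 and of Cwc22, a splicing factor, the Scpep1os intron and an exon of a noncoding transcript near B430212C06Rik. At Tnfrsf22 (chr7:143649025-143650204) the WTAkita libraries had 1 peak of 29.2, 27.6, 31.5 and 32.97-fold enrichment, and the Ctrl libraries had a peak of 29.6, 30.6 and 31.9 with a second of 2.32, 2.69 and 3.24 beside it. The strong peak was of like height in both groups and no WTAkita library recorded the weak one. At Zswim1 (chr2:164822658-164823647) the single WTAkita peak had 24.97, 25.6, 27.9 and 27.4-fold enrichment and ran over both flanks, whereas Ctrl had 26.7, 27.9 and 28.0 beside 5.26, 6.65 and 5.07. At the Scpep1os intron, whose gap is printed above, WTAkita replicates 2 and 3 ran over the gap and replicates 1 and 4 lacked the weaker flank. After joining at 5 bp, Zswim1 and Scpep1os stayed split in 3 Ctrl libraries, Tnfrsf22 and the exon near B430212C06Rik in 2 and Cwc22 in 1, and none of these in a WTAkita library.

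**Figure D4:**
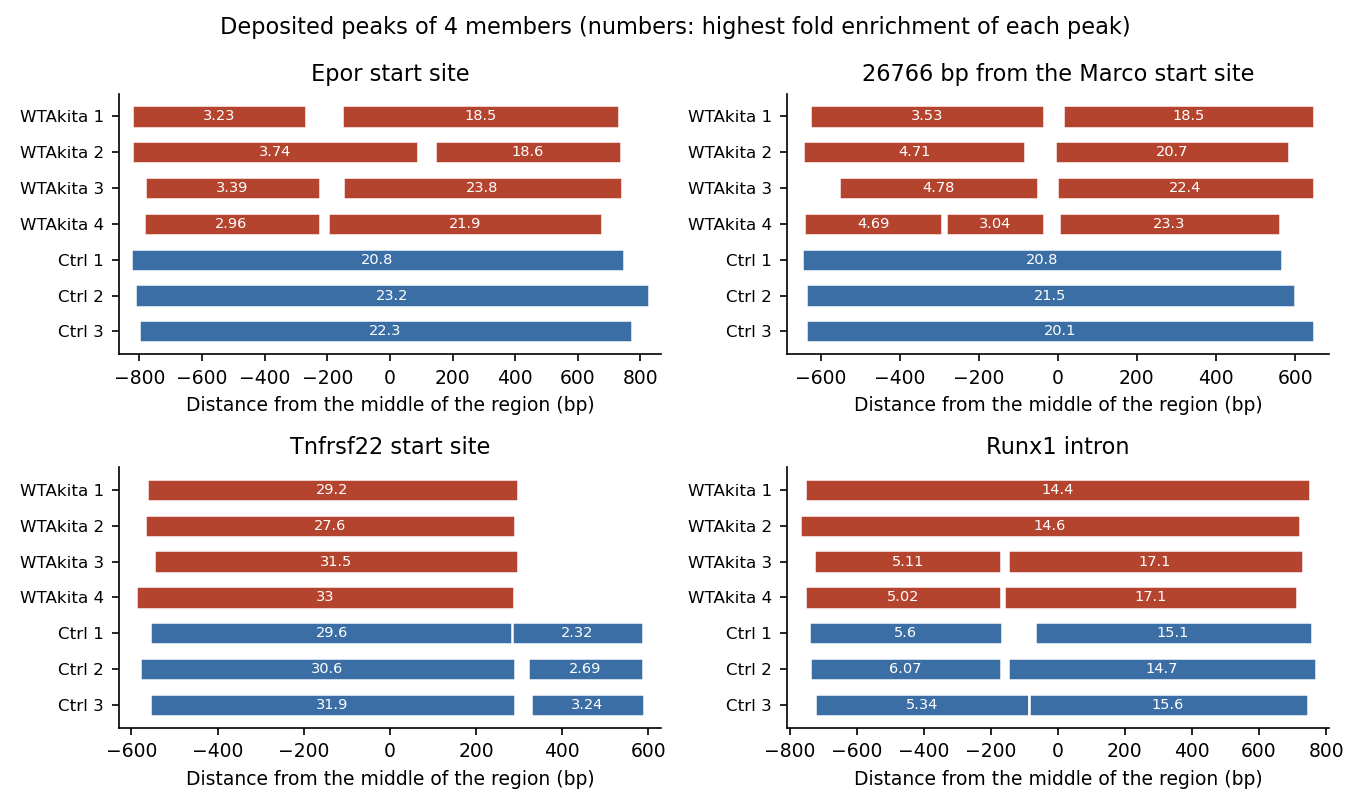
Deposited peaks of 4 members in each library (rows, 4 WTAkita libraries in red above 3 Ctrl libraries in blue) by distance from the middle of the merged region in bp, with each peak's highest fold enrichment written in it. Epor and the Marco site were split in WTAkita alone, Tnfrsf22 in Ctrl alone, and the Runx1 intron in 2 WTAkita and 3 Ctrl libraries.

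The height of the members was then compared, since the rule did not use it. Each member took its highest fold enrichment in each library, on a log2 scale after quantile normalization, and limma was run over all 105631 shared regions with Benjamini-Hochberg adjustment. No member passed an adjusted p of 0.05 (0.0% of all regions, smallest adjusted p 1.00 from limma). At an unadjusted p under 0.05 from limma there were 216 members (3.10%), beside 3.86% of all regions, of which 104 (1.49%) were higher and 112 (1.61%) lower in WTAkita, beside 1.76% and 2.1% of all regions. The groups did not overlap in 331 members (4.75%), beside 4.72% of all regions. The median difference, WTAkita minus Ctrl, was 0.015 over the members and 0.0064 over all regions.

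Members with the largest moderated statistics were described by that rule and none passed the adjustment. The highest fold enrichment in an intron of Mcu, the pore of the mitochondrial calcium uniporter (chr10:59538684-59539866), was 11.3, 12.5, 13.8 and 14.6 in WTAkita and 9.81, 11.2 and 8.84 in Ctrl, a log2 difference of 0.46 (SE 0.11, adjusted p = 1.00 from limma). In an intron of Ttc28 (chr5:111139027-111140088) it was 5.23, 6.09, 6.34 and 7.14 in WTAkita and 4.24, 4.68 and 3.86 in Ctrl, a log2 difference of 0.58 (SE 0.15). Both sites had every WTAkita library above every Ctrl library. At Plcd1, a phospholipase C (chr9:119075163-119076426), it was 3.23, 4.18, 5.42 and 3.70 in WTAkita and 7.24, 6.97 and 7.22 in Ctrl, a log2 difference of -0.76 (SE 0.17). In an intron of Tmem56 (chr3:121234063-121234885) it was 2.62, 2.66, 4.24 and 3.27 in WTAkita and 5.38, 5.03 and 6.47 in Ctrl, a log2 difference of -0.80 (SE 0.18). Tmem178b (0.48) and Tifa, an adaptor of innate immune signaling (-0.53, but 0.10 with peaks up to 150 bp apart merged), completed the set, and for all 6 the adjusted p from limma was 1.00.

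Where a member got the mean over its peaks instead of the highest, split and height were mixed. Limma then called 5 regions (0.00473% of all regions), and all 5 were members split along group lines. Tnfrsf22 had a log2 difference of 0.92 (SE 0.07, adjusted p = 0.00363 from limma), the Scpep1os intron 0.90 (SE 0.08, adjusted p = 0.00663), Zswim1 0.74 (SE 0.08, adjusted p = 0.0179), the site near Rpl38 -0.86 (SE 0.09, adjusted p = 0.0179) and Epor -0.81 (SE 0.09, adjusted p = 0.0360). With the highest peak the differences of the same 5 members were 0.04, 0.05, 0.0043, -0.11 and -0.03. At an unadjusted p under 0.05 from limma the mean gave 670 members (9.61%), beside 3.87% of all regions. The groups did not overlap in 356 members (5.11%), beside 4.76% of all regions. Of the 301 that were higher in WTAkita (1.84% of all regions were), 294 were split in a smaller share of WTAkita than of Ctrl libraries, and of the 369 that were lower (2.03% of all regions were), 360 were split in a larger share. A mean over peaks includes the weak flank when it is called on its own, so this measure uses what chose the members and is a description.

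**Figure D5:**
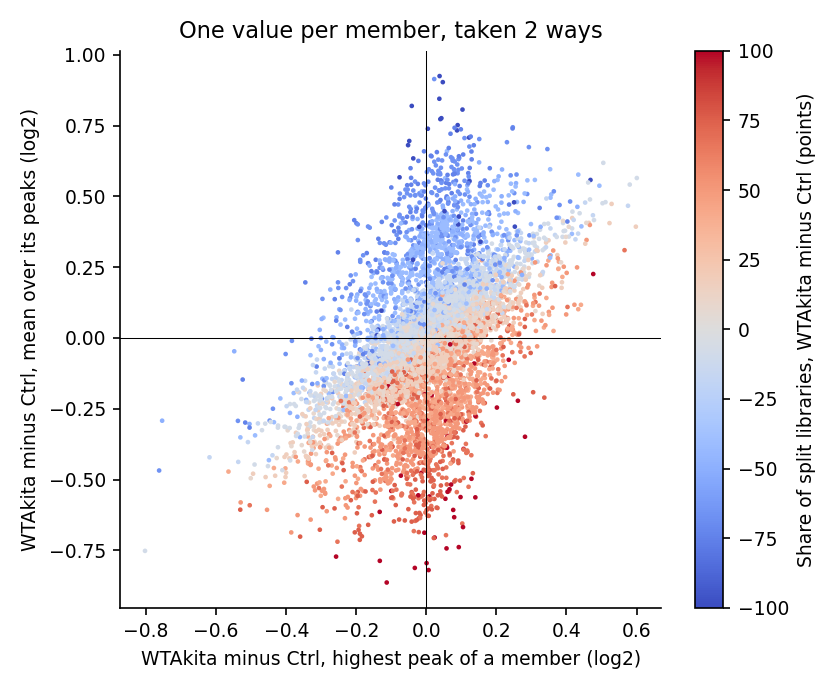
Difference of each of the 6970 members, WTAkita minus Ctrl on the log2 scale, from its highest peak (horizontal axis) and from the mean over its peaks (vertical axis), colored by the share of split libraries in WTAkita minus that in Ctrl, in percentage points. Members split more in WTAkita (red) lie low and those split more in Ctrl (blue) lie high on the vertical axis, with the 5 called ones at 0.92, 0.90, 0.74, -0.86 and -0.81.

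Within a member, a split call and a single call were of like height. The log2 fold enrichment in split libraries minus that in single libraries had a median of 0.0094 over members, with 3670 members above 0 and 3300 below. The weaker flank reached a median of 0.437 times the stronger one where both had a summit inside a single peak. This covered 5801 members, and only 16523 of the 26189 single calls had a summit on both sides of the gap. In split libraries the median was 0.425 over all 6970 members. Single calls without a summit on both sides are left out of the first value, so the medians do not compare the same members.

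Members were often promoters, as wide sites were in general. A start site within 1000 bp was found for 2695 members (38.7%), against 23.1% of all shared regions, 20.7% of regions single in all 7 libraries and 45.6% of regions split in all 7. Of the 11475 single regions with a width between the members' quartiles, 54.9% were at a start site. The members' share was thus higher than over all regions and lower than at single sites of like width. Those sites were also stronger, with a median fold enrichment (geometric mean over libraries) of 14.9 against 8.89 for the members. Introns held 31.6% of members and 39.7% of all shared regions, and intergenic DNA held 26.0% and 33.2%. Coding exons held 1.35% and noncoding exons 2.45%. On the 19 autosomes, members made up between 5.99% (chromosome 1) and 7.26% (chromosome 15) of the shared regions.

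At promoters the gap lay more often inside the gene than before it. Of the 2695 promoter members, 2300 had the start site inside the region. The gap was downstream of the start site in 1746 and upstream in 949, at a median of 214 bp downstream. It lay 100 to 500 bp downstream in 1006 members, 100 to 500 bp upstream in 546 and within 100 bp of the start site in 228. Examples are the Sod2 start site, with the gap 371 bp downstream, that of Tet3, a DNA demethylation enzyme, 473.5 bp downstream, that of Irf8, a regulator of monocytes and dendritic cells, 184.5 bp downstream, and that of Cat, which encodes catalase, upstream of it (-346.5 bp).

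The genes with the most members included very long gene models. Gm20388, a readthrough gene model of 4434882 bp, held 42 members among 682 shared regions, and the model of Fgfr2, a fibroblast growth factor receptor, held 15 of 175 over 2960900 bp. Rere, a nuclear corepressor, held 10 of 38, Arhgap26 held 9 of 62, and Maml3 held 8 of 50. The strongest member of Rere, at its start site, was split in WTAkita replicate 3 and in Ctrl replicates 2 and 3. The strongest one of Maml3 was split in WTAkita replicates 1 and 4 and Ctrl replicate 3, and its gap is printed above.

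Members were found at regulators of several blood lineages. Of 24 stem and progenitor regulators, 12 had at least 1 member in the gene or within 1000 bp of its start site, among them Meis1, Mecom, Gata2 and Runx1. The share was 4 of 15 in the myeloid list, 7 of 16 in the lymphoid list, 6 of 13 in the erythroid and megakaryocyte list, 10 of 22 among chromatin and DNA methylation genes, 3 of 15 in the inflammasome and AGER list and 2 of 22 among mitochondrial genes, beside 23.6% of 16504 protein-coding genes. A gene with more open regions can hold a member more easily, and the stem and progenitor regulators held 309 shared regions. Per shared region, members were 9.71% at these regulators, 8.25% in the myeloid list, 7.69% in the lymphoid list, 6.73% in the erythroid and megakaryocyte list, 8.02% among chromatin genes, 9.59% in the inflammasome and AGER list and 3.51% among mitochondrial genes, which is 2 of 57, beside 7.51% over all protein-coding genes. No list member passed limma in either direction with its highest peak. With the mean over peaks, Epor of the erythroid and megakaryocyte list did, as given above.

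In the stem and progenitor list, a Runx1 intron (chr16:92800696-92802234) had a highest fold enrichment of 14.4, 14.6, 17.1 and 17.1 in WTAkita and 15.1, 14.7 and 15.6 in Ctrl. It was a single peak in WTAkita replicates 1 and 2 and 2 peaks in the other 5 libraries, and its height overlapped between groups. Runx1 is required for the emergence of hematopoietic stem cells. An intron of Mecom, a factor that maintains stem cells (chr3:30455625-30456767), was split in WTAkita replicates 2 and 4 alone, with heights of 14.2, 13.4, 16.9 and 20.6 in WTAkita and 15.8, 16.6 and 16.9 in Ctrl. A second Mecom intron (chr3:30329941-30330890) was single in WTAkita replicate 4 and Ctrl replicate 2 and split in the other 5, and after joining at 5 bp it was split in 3 WTAkita libraries and 1 Ctrl library.

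In the lineage lists, the Irf8 start site (chr8:120735682-120736990) was split in WTAkita replicate 1 and Ctrl replicate 1, with a median gap of -1 bp, and after joining at 5 bp it was split in no WTAkita library and 1 Ctrl library. The start site of Runx2, a Runx1 paralog of bone and progenitor cells, was split in 2 WTAkita and 3 Ctrl libraries with a gap of 67 bp, and joining left these calls as they were. The Tcf7 start site, which belongs to a factor of early T cells, was split in 3 WTAkita libraries and no Ctrl library, with heights of 5.31, 5.91, 6.94 and 7.31 in WTAkita and 6.82, 7.52 and 6.68 in Ctrl. Vwf and Pf4, genes of megakaryocytes and platelets, were split in 1 and 3 WTAkita libraries and in 2 and 2 Ctrl libraries. Each of these lineage genes but Tcf7 was thus split in at least 1 library of both groups. Epor, the strongest member of the erythroid and megakaryocyte list, is described above and was split in all 4 WTAkita libraries and no Ctrl library.

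In the other lists, the Tet3 start site was split in 3 WTAkita and 2 Ctrl libraries at heights of 16.5, 16.1, 17.3 and 17.4 in WTAkita and 16.3, 16.2 and 17.4 in Ctrl. The Nfkb1 site printed above was split in WTAkita replicates 1 and 4 and Ctrl replicate 2, with a weak peak of 2.45 and 2.67-fold enrichment in WTAkita and 2.0 in Ctrl beside the strong one. An intron of Aim2, a sensor of cytosolic DNA, was split in WTAkita replicate 1 and Ctrl replicate 3. The 2 members of the mitochondrial list lie at genes of antioxidant enzymes, of which catalase is peroxisomal. Cat was split in all 4 WTAkita libraries and in Ctrl replicate 1, at heights of 18.5, 19.7, 19.7 and 19.9 in WTAkita and 19.7, 20.6 and 20.3 in Ctrl. Sod2 was split in no WTAkita library and in Ctrl replicates 2 and 3, at heights of 13.7, 14.2, 15.7 and 15.9 in WTAkita and 16.3, 16.5 and 15.9 in Ctrl, and the weak peak beyond the printed gap had 1.89 and 1.87-fold enrichment in those 2 libraries. WTAkita replicates 1 and 4 had 1 peak over both flanks there, and WTAkita replicates 2 and 3 and Ctrl replicate 1 did not record the weak flank.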

How the data were processed

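ATAC-Seq peak lists of 4 WTAkita and 3 Ctrl libraries were used. Per the submitters' processing notes, the authors used Trim Galore 0.4.2 with cutadapt 1.9.1 for trimming, Bowtie2 2.3.4.1 for alignment to mm10, and MACS2 2.1.4 for peaks of each library by itself, a caller that joins stretches of signal nearer than a distance set from the reads. Fold enrichment as deposited is the ratio of pileup at the summit to local background, unscaled between libraries. Of the −log10 p-value and q-value columns in the deposited lists, only the first served, for the alternative threshold of 1e-05. The deposited score was not used. The deposited summit offset (another unit, in bp) fitted the peaks only after 50 bp was added, since the mean relative summit position was then 0.497 to 0.498 in each library, so peaks were taken as padded by 50 bp. Tags were estimated from the background level, an extension of 150 bp and a genome of 1870000000 bp. The effect of depth on the calling of weak flanks was not tested.

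Regions were built in Python 3.11.15 and checked against bedtools 2.31.1. Limma 3.58.1 with trend was run in R 4.3.3 and tested on simulated data, as were the counts. Single measures used exact permutation tests over 35 splits. Genes and start sites were from GENCODE M21, and sequences from the mm10 RefSeq genome, of which 200 of 200 promoters checked were identical in the RefSeq promoter table. Windows that touch an annotated UTR and windows on chromosome 18 were not printed. Members and gene lists were chosen with earlier results of these data known. Named members followed fixed rules: the 5 strongest split along group lines in each direction, the 5 strongest of all, the strongest in the 5 genes with most members, up to 3 per list, the 3 with the largest limma statistic in each direction, and the strongest at each side of the threshold; only part are described. Alternatives covered the peak threshold, merging distance, coverage, rule, width, normalization, filter, trend, the value of a region, the start site window, a block for replicate number, and single libraries left out. Data of other assays were not used here.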

Additional observations from a re-analysis of the deposited data

How the results depend on the processing

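The difference in split share kept its direction under all 16 alternatives, the joining at 5 bp chosen after the data were seen included, from 0.85 to 6.08 points (p from 0.114 to 0.800, exact permutation tests, which could not reach 0.05 with so few libraries), and so did the mean number of peaks, from 0.0098 to 0.066. With each library left out in turn, the split share difference ran from 0.85 to 6.08 points, that in the share with 1 peak over both flanks from -8.51 to -2.40 points and that in the median summed peak width from -21.75 to -16.8 bp. Members split along group lines numbered 90 to 145 for WTAkita and 64 to 164 for Ctrl with a library left out, where fewer libraries have to differ, and 51 for Ctrl when peaks up to 150 bp apart were merged. Limma called 0 to 7 regions with a library left out, the 7 without WTAkita replicate 4 and none of them a member. It called 5 regions, 5 of them members, with the mean over a region's peaks. Merging peaks up to 150 bp apart changed the difference at Tifa to 0.10, and the cause was not tested. Of the members, 51.0% counted as promoters at a window of 5000 bp, and 35.3% when gene models were limited to protein-coding ones. Members at an unadjusted p under 0.05 from limma numbered 135 with a caller p under 1e-05 and 670 with the mean over peaks, beside 216.

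The replicate numbers were not taken as pairs, since the paper's methods name no pairing. The correlations of same-numbered deviations were 0.209, 0.0257 and 0.0633. Those of differently numbered libraries were not computed, so these values cannot show whether the numbers mark pairs. With a replicate block the split share difference over numbers 1 to 3 was 5.99 points (exact sign-flip test, two-sided, p = 0.25, the smallest possible), the mean number of peaks differed by 0.066, and limma called 6 regions with 0 members, with 328 members at an unadjusted p under 0.05. Whether depth limited which weak flanks were called was not tested.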
